A study of Mus musculus with 4 samples.

Results

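Fos, Fosb, Fosl2, Jun, Junb, Jund, Atf3 and Maff, 8 transcription factor genes of the Fos, Jun, Atf and small Maf families, were followed in single-nucleus RNA counts of mouse hippocampus. They were taken by symbol from the 32285 genes counted, and each symbol matched 1 gene. Hippocampi of both hemispheres came from wild-type (WT) mice and from Cyfip2+/R87C knock-in (KI) mice, which carry 1 copy of a Cyfip2 allele with the R87C change beside 1 wild-type copy, on a C57BL/6N background. WT and KI mice were littermates at the oldest age examined in the study, with 2 mice per genotype and 1 library per mouse. The allele is a model of an infantile epilepsy, and the question put to these libraries is how the transcriptome of the hippocampus differs in the KI mice. The change is present in every cell of the animal, so an effect that starts within a cell class and one that reaches it from other cells cannot be told apart. For KI replicate 2 the treatment label reads R88C and the protocol R87C, and the genotype label decided its group.

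AP-1 is a dimer of basic leucine zipper proteins. Jun proteins pair with each other or with Fos proteins, whereas Fos proteins need a Jun partner to bind DNA. In neurons, calcium entry through synapses and channels leads to phosphorylation of CREB and SRF cofactors, which switch on Fos, Fosb and Junb within minutes. Their transcripts are short-lived, so that a tissue holds them in the cells that were recently active. Jund is made more steadily, and Fosl2 rises more slowly than Fos. Atf3 is induced by injury and stress and pairs with Jun proteins. Maff is a small Maf protein, which lacks an activation domain and takes its effect from its partners. After repeated seizures, a shortened splice form of Fosb (DeltaFosB) accumulates in the hippocampus. Counts per gene do not separate that form from the full-length one.

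The 8 genes lie on 7 chromosomes of GRCm38, as GENCODE M21 places them. Fos (ENSMUSG00000021250) spans chr12:85473890-85477273 on the plus strand, Fosb spans chr7:19302696-19310051 on the minus strand, and Fosl2 spans chr5:32135801-32157842 on the plus strand. Jun lies at chr4:95049034-95052222 on the minus strand and is a single exon of 3189 bases. Junb at chr8:84974484-84978718 (minus strand) and Jund at chr8:70698949-70700616 (plus strand) share chromosome 8. Atf3 occupies chr1:191170296-191218039 on the minus strand, and Maff occupies chr15:79346621-79359076 on the plus strand. Intronic bases make up 45590 of the 47744 bases of Atf3 and 12362 bases of Fosl2, and Jun has none. Nuclei hold unspliced RNA, and whether intronic reads were counted is not given in the sources used here, so levels are compared between samples and classes for 1 gene at a time, not between genes.

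Promoters are shown because Fos, Fosl2 and Junb had lower values together in the KI libraries described below, while Maff had a higher value. RefSeq (GRCm38.p6) gave 10 promoters for the 8 genes, each with 250 bases before and 50 bases after a start site. Of these windows, 1 held the full cAMP response element (CRE) TGACGTCA, against 1.79% of all 32851 promoters. Its core TGACG, on either strand and part of the full element, was in 6 of the 10 windows and in 20.8% of all promoters. The AP-1 site TGANTCA was in 0 of the 10 and in 7.81% of all, and the CArG box, read by SRF, in 0 of the 10 and in 1.63% of all. The 250 bases before the start are printed 5′ to 3′ on the gene's own strand, at chr12:85473640-85473889 for Fos, chr8:84978749-84978998 for Junb, chr5:32136222-32136471 for Fosl2 and chr15:79347270-79347519 for the Maff start with the full element. Capitals mark TGACG or TGACGTCA.
Fos: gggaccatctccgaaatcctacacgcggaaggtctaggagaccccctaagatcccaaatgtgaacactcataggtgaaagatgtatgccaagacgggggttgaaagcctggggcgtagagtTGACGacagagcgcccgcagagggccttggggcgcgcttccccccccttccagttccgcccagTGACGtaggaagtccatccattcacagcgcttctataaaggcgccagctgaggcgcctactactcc
Junb: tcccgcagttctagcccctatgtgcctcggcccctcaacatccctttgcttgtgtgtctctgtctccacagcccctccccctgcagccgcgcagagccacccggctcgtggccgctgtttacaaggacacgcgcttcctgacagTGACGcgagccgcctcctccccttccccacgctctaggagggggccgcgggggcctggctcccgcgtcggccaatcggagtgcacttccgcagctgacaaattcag
Fosl2: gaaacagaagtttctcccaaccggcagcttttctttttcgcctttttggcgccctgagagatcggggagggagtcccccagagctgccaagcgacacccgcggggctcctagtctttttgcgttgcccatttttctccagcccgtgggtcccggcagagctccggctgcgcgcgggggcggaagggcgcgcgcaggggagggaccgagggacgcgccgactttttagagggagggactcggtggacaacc
Maff: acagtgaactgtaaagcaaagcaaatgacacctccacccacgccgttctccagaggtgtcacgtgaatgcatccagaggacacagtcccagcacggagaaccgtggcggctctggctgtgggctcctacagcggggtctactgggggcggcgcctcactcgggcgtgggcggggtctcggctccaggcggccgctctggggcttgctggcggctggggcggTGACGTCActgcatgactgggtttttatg
In Fos the core began 129 and 66 bases before the start, in Junb 106 bases and in Maff 29 bases before it. The Fosl2 window held none of these letters. RefSeq starts of Fosl2, Junb and the Maff window shown differ from the outermost ends of the GENCODE genes. So do those of Fosb, Atf3 and Jund, whose windows are not printed. The Jund window (chr8:70697489-70697788) lay wholly before the GENCODE start of Jund at 70698949. Sequence outside the windows was not searched, so an absent match does not show that a gene lacks a site. A match of letters is no evidence of a bound site.

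The libraries kept 16000 and 13185 nuclei for WT replicates 1 and 2 and 12565 and 13617 for KI replicates 1 and 2, with 72951460 to 80875469 UMIs (unique molecular identifiers, each a counted transcript) per library. Pairs of libraries shared 40 to 66 barcodes, at most 0.525% of a library. The nuclear transcript Malat1 took 8.71% to 8.89% of UMIs in WT and 12.1% to 13.7% in KI libraries, and the labels name 1 batch for all. Nuclei were assigned to classes by marker genes, none of which is 1 of the 8 factors, and 34810 nuclei (62.9%) were assigned. A class name means likeness to that cell type in these markers. KI libraries held 1496 and 1542 nuclei like granule neurons of the dentate gyrus (DG), against 2978 and 2270 in WT. In counts over all nuclei, fewer nuclei of a class and less RNA per nucleus cannot be told apart. Transcripts of other classes were present in nuclei, and the parts of free RNA and of doublets in this were not tested. Mbp, a myelin gene, was seen in 35.4% to 42.3% of DG granule neurons, and Syt1, a neuronal gene, in 63.6% to 71.5% of oligodendrocytes. The Syt1 level in oligodendrocytes was 39.9% to 57.1% of that in DG granule neurons of the same library. No class is known to lack the 8 factors, so their own background level was not measured.

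Over all libraries, 8579 UMIs of Jund were counted in 7667 nuclei, 7763 of Jun in 6740 nuclei, 4498 of Junb in 4017 nuclei and 2558 of Fosl2 in 2310 nuclei. Fos gave 590 UMIs in 522 nuclei (0.943% of 55367), Fosb 288 UMIs in 255, Maff 251 UMIs in 242 and Atf3 86 UMIs in 71. These low numbers limit what can be said of Fos, Fosb, Maff and Atf3 within a class.

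Of the 21 differences between cell classes called below, most were of Jun, Jund and Junb. Jun was called higher in DG granule neurons, astrocytes and oligodendrocytes, Jund in oligodendrocytes and astrocytes, and both were called lower in pyramidal and inhibitory neurons. Classes were compared on UMI sums per class and library, each of 11 classes against the mean of the others, with the library as a block (edgeR, quasi-likelihood, Benjamini-Hochberg adjusted p). Of 66 class-by-gene results for the 6 genes past the low-count filter, 21 were called, 10 higher and 11 lower. This is 21 of 66 beside 31.7% of all results over all genes, so the factors were not called more often than genes at large by that measure.

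Jun, the partner that can also bind DNA without Fos, reached 49.1 ± 8.66 CPM (UMIs of a gene for every 1000000 of the class and library) in astrocytes, 43.3 ± 7.71 CPM in oligodendrocytes and 42.9 ± 5.75 CPM in DG granule neurons (SD, n = 4 libraries of both genotypes). The ranges of these classes overlapped. Its level was 15.7 ± 1.50 CPM in CA1 pyramidal neurons and 11.7 ± 1.97 CPM in inhibitory neurons, and these ranges did not overlap. In DG granule neurons, the log2 difference of Jun from the mean of the other classes was 1.01 (SE 0.13, adjusted p 7.8e-09). Astrocytes (1.02, SE 0.16) and oligodendrocytes (0.81, SE 0.14) were higher too, and CA1 (-0.50), CA3 (-0.41), subicular or cortical (-0.54) and inhibitory neurons (-1.10) were lower on the same scale. Among neurons, Jun was thus called higher in DG granule neurons and lower in each of the other 4 large classes. The calls in DG granule neurons, astrocytes, oligodendrocytes and inhibitory neurons held under all 8 alternatives, WT libraries alone among them. Those in the other neurons rested on single libraries: in CA1 the adjusted p was 0.130 without KI replicate 2 and 0.0778 without WT replicate 2, in CA3 it was 0.0711 to 0.367 without KI replicate 2, WT replicate 1 or WT replicate 2, and in subicular or cortical neurons 0.103 without WT replicate 1.

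Jund, the steadily made member, was highest by mean, among the 11 classes tested, in oligodendrocytes at 72.9 ± 20.9 CPM, followed by mural cells at 67.6 ± 16.0 CPM and astrocytes at 62.6 ± 17.0 CPM, with overlapping ranges. At the other end, CA3 pyramidal neurons had 17.0 ± 0.685 CPM, below every library of inhibitory neurons at 19.8 ± 1.11 CPM. Its log2 difference was 1.16 (SE 0.09, adjusted p 5.0e-15) in oligodendrocytes and 0.88 in astrocytes, and -0.78 in CA3, -0.72 in inhibitory, -0.54 in CA1 and -0.36 in subicular or cortical neurons. DG granule neurons lay between these groups at 29.2 ± 3.89 CPM and were not called for Jund. The Jund calls held under all 8 alternatives except in subicular or cortical neurons, where the adjusted p was 0.0527 without KI replicate 1, 0.0561 without WT replicate 1 and 0.112 in WT libraries alone.

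Junb, an activity-induced Jun, ranged less, from 8.84 ± 2.00 CPM in inhibitory neurons to 24.0 ± 11.7 CPM in microglia, and each class overlapped the next in the order of means. It was higher in astrocytes (log2 difference 0.60), microglia (0.55) and CA1 pyramidal neurons (0.41) and lower in inhibitory neurons (-0.68). CA1 pyramidal neurons were the neuronal class in which Junb was called higher, whereas Jun and Jund were called lower in the same nuclei. The call in inhibitory neurons held under all 8 alternatives. That in CA1 was lost without WT replicate 1 (adjusted p 0.159) or WT replicate 2 (0.229) and with library totals (0.549), that in microglia without KI replicate 1 (0.653), and that in astrocytes without KI replicate 1, KI replicate 2 or WT replicate 1 (0.0572 to 0.290). With classes from clusters neither was called (0.392 in astrocytes, 0.0970 in microglia). In WT libraries alone, the astrocyte and microglial values were 0.21 and 0.15 (adjusted p 0.529 and 0.770).

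Of the Fos family, Fosl2 was lower in inhibitory neurons (log2 difference -0.69) and oligodendrocyte precursors (OPC, -0.80), at means of 4.83 and 4.63 CPM. The OPC call was lost under all 8 alternatives (adjusted p 0.0548 to 0.290), and that in inhibitory neurons without KI replicate 2 (0.228) and in WT libraries alone (0.130). Fos was called higher in astrocytes alone (1.88, SE 0.68, adjusted p 0.0236), where its 4 libraries held 9, 5, 11 and 4 UMIs, and this call was lost without KI replicate 1 (0.336) or KI replicate 2 (0.117), with classes from clusters (0.166) and in WT libraries alone (0.667). The astrocyte mean of 6.08 ± 4.92 CPM overlapped in range with oligodendrocytes (2.60 ± 1.72) and CA1 pyramidal neurons (2.15 ± 2.17), but not with DG granule neurons (1.05 ± 0.882). Maff was called higher in oligodendrocytes (1.76, SE 0.61, adjusted p 0.0158), with nearly all of its UMIs from the KI libraries described below, and not called without KI replicate 2 (0.193). Fosb and Atf3 did not pass the filter in the comparison of classes. Fosb lay at 1.14 ± 1.03 CPM in CA1, 0.885 ± 0.521 in CA3 and 0.877 ± 0.236 in DG granule neurons, and Atf3 at 1.30 ± 0.914 CPM in microglia and 0.353 ± 0.122 in DG granule neurons.

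**Figure D1:**
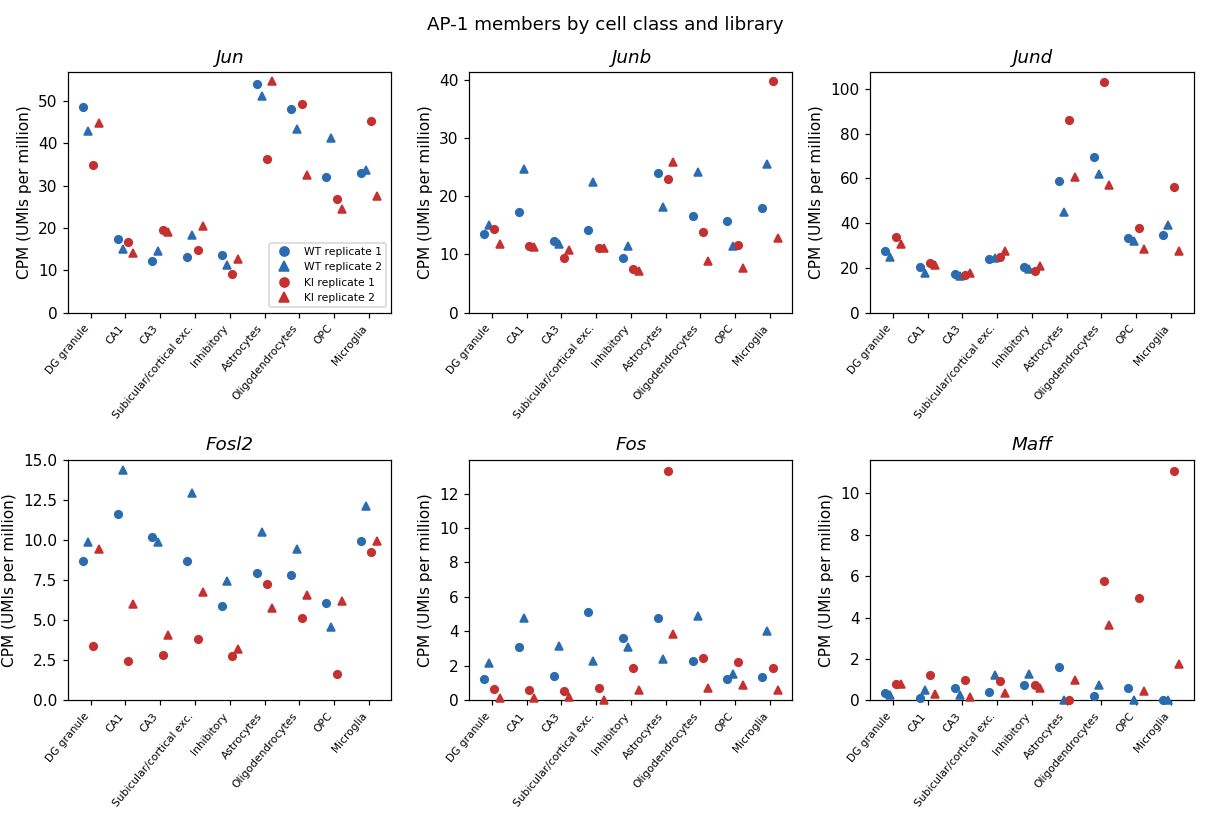
Level of Jun, Junb, Jund, Fosl2, Fos and Maff in CPM (vertical axes, starting at 0) in 9 cell classes (horizontal axis), with 1 point per library, WT in blue and KI in red, and the marker shape giving the replicate. Jun is high in astrocytes, oligodendrocytes and DG granule neurons (means 49.1, 43.3 and 42.9 CPM) and low in inhibitory neurons (11.7 CPM), and the KI points of Fos and Fosl2 lie below the WT points in CA1 and CA3 pyramidal neurons.

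Over all nuclei, Fos, Fosb, Fosl2 and Junb had lower values in both KI mice, though no factor passed the test after adjustment. Fos was 2.64 and 3.42 CPM in WT mice and 1.40 and 0.420 CPM in KI mice replicates 1 and 2, from 204, 250, 102 and 34 UMIs. Both KI libraries lay below both WT libraries, and KI replicate 2 was the lowest. The log2 fold change (KI over WT) was -1.68 (SE 0.54, adjusted p 0.152 in edgeR). The pooled ratio of WT to KI was 3.42, or 7.18 if KI replicate 1 is left out and 2.16 if KI replicate 2 is. Fos was called in 4 of 12 alternatives, those without KI replicate 1 (adjusted p 0.0195), without KI replicate 2 (0.0278), with DESeq2 (0.0218) and with the replicate block (0.0266). Fosl2 was 10.1 and 12.4 CPM in WT mice and 4.24 and 6.97 CPM in KI mice, with a log2 fold change of -0.96 (SE 0.25) and an adjusted p of 0.114, the smallest of the 8. Fosl2 was called without KI replicate 2 (0.00654), with DESeq2 (0.00648) and with the replicate block (0.0131). Again the groups did not overlap, and KI replicate 1 was the lower of the pair.

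Fosb gave 77 and 128 UMIs in WT and 44 and 39 UMIs in KI, which is -1.28 (SE 0.37, adjusted p 0.127) on the log2 scale. Junb was 15.9 and 19.3 CPM in WT mice and 13.1 and 11.3 CPM in KI mice (-0.47, SE 0.16, adjusted p 0.162). For these 2 genes also, every KI value was under every WT value. Jun was 28.4 and 25.8 CPM in WT mice and 22.8 and 24.9 CPM in KI mice (-0.13, adjusted p 0.474), a narrow gap without overlap. Jund was 27.9 and 25.2 CPM against 32.1 and 27.7 CPM (0.22, adjusted p 0.337), and its CPM ranges overlapped. The share of nuclei with a Jund UMI did not overlap, at means of 12.4% in WT and 15.5% in KI. After thinning each nucleus to 1500 UMIs the means were 4.50% and 5.28%, also without overlap.

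Maff went the other way, with 37 and 34 UMIs in WT and 122 and 58 UMIs in KI (log2 fold change 1.39, SE 0.47, adjusted p 0.158). The Maff value ran from 0.62 to 1.88 over 12 alternatives, single libraries left out among them. Atf3, the stress-induced member, had 20, 20, 21 and 25 UMIs, nearly equal in all libraries (0.22, adjusted p 0.698). Its share of nuclei with a UMI averaged 0.0899% in WT and 0.172% in KI, without overlap. After thinning each nucleus to 1500 UMIs the shares were 0.037% and 0.067%, again without overlap. Nuclei with at least 3 UMIs of Atf3 were found in WT alone (0.0176% on average). By this test 0 of the 8 factors passed an adjusted p of 0.05, and 0.771% of the 21925 genes tested did. At an unadjusted p under 0.05 there were 5, of which 4 were lower in KI (Fos, Fosb, Fosl2 and Junb) and Maff was higher, beside 24.4% of all genes at that limit. DESeq2 called 2 of the 8. The shares above are from edgeR, and the share of all genes called by DESeq2 is not given here, so this count has no background beside it. Of the 5 factors with a mean of at least 1 CPM (Fos, Fosl2, Jun, Junb and Jund), all but Jund had both KI libraries below both WT libraries, beside 40.3% of all such genes. An exact permutation test of 2 against 2 libraries cannot go below a p of 0.333.

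Within classes, a lower KI level passed the test for Fos in CA1 pyramidal neurons and for Fosl2 in CA3 pyramidal neurons. These 2 results, both lower in KI, were called among 43 class-by-gene results, and 15 of the 43 had an unadjusted p under 0.05. Between 6.33% (microglia) and 28.1% (DG granule neurons) of all genes passed that limit in the 9 classes concerned. After adjustment, 0.0% (microglia and subicular or cortical neurons) to 9.63% (DG granule neurons) of all genes were called in these classes. CA1 pyramidal neurons are the output cells of the hippocampus proper and CA3 pyramidal neurons drive them.

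In CA1 pyramidal neurons, 26 and 50 UMIs of Fos were counted in WT and 4 and 1 in KI, or 3.09, 4.77, 0.608 and 0.154 CPM. Every KI value was far under the lower WT value, and 33.4% of all genes of at least 1 CPM had both KI values under both WT values here. The log2 fold change was -3.24 (SE 0.61, adjusted p 0.0474), and the ratio of the pooled WT to KI levels was 10.5 with a 95% counting interval of 4.31 to 33.3. It was 26.1 without KI replicate 1, when 1 KI UMI was left, and 6.61 without KI replicate 2. The adjusted p ranged from 1.04e-04 to 0.0698 over the 14 alternatives, of which 10 kept the call. It was lost without WT replicate 2 (0.0698), the library with the highest value, with doublets left out (0.0528), with library totals (0.0535) and with the stricter gate (0.0560). Of all genes tested in this class, 1.97% were called. Fosl2 in the same nuclei had 98 and 151 UMIs in WT and 16 and 39 in KI (11.6, 14.4, 2.43 and 6.02 CPM; -1.56, SE 0.35, adjusted p 0.0738), and 8 of 14 alternatives called it, each fit without 1 library among them (0.000437 to 0.0308). The Fosl2 value ran from -2.30 to -1.10 over these 14 alternatives. Junb had 17.3 and 24.7 CPM in WT mice and 11.4 and 11.3 CPM in KI mice (-0.82, SE 0.22, adjusted p 0.102). Fosb, under the count filter here, had 9 and 27 UMIs in WT and 1 and 5 in KI, a pooled ratio of WT to KI of 4.14 (1.73 to 12.0) (2.47 if KI replicate 1 is left out, 12.5 if KI replicate 2 is).

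In CA3 pyramidal neurons, Fosl2 gave 100 and 79 UMIs in WT and 20 and 23 UMIs in KI, or 10.2, 9.88, 2.82 and 4.11 CPM. The WT pair lay close together and well above both KI values, a non-overlap that 34.0% of all genes of at least 1 CPM shared in this direction. The log2 fold change was -1.47 (SE 0.27, adjusted p 0.0343), where 2.43% of the genes of this class were called. Without WT replicate 1 the adjusted p was 0.227, and without WT replicate 2 it was 0.153, in a range of 3.005e-05 to 0.227 over the 14 alternatives, of which 11 kept the call. With classes from clusters it was 0.0883. Fos had 14 and 25 UMIs in WT and 4 and 1 in KI (-2.37, SE 0.70, adjusted p 0.113), a pooled ratio of WT to KI of 5.56, which became 12.3 if KI replicate 1 is left out and 3.88 if KI replicate 2 is. It was called with no low-count filter (0.00486) and with the replicate block (0.0433). Jun moved up rather than down by value, from 12.2 and 14.6 CPM in WT mice to 19.6 and 19.1 CPM in KI mice (0.62, SE 0.18, adjusted p 0.106).

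Markers of other classes also moved with genotype in these nuclei. The summed level of 6 OPC markers, all of which were detected in every library, was 82.8 to 118 CPM in WT mice and 156 to 158 CPM in KI mice within CA1, and 101 to 118 CPM against 147 to 202 CPM within CA3. That of 8 astrocyte markers, also all detected, was 96.8 to 118 CPM in WT mice and 57.8 to 81.5 CPM in KI mice within CA1, and 132 to 138 CPM against 88.6 to 108 CPM within CA3. Malat1 in KI was 1.49 times its WT level in CA1 and 1.40 times in CA3. Both KI values lay above both WT values for 3 of 6 OPC markers in CA1 and 2 in CA3. Both lay below for 1 and 0. Of 8 astrocyte markers, 5 in CA1 and 6 in CA3 lay below, and 1 and 0 above. Of 5 markers of the class itself, 3 in CA1 and 5 in CA3 lay below, and 0 above. Of all genes of at least 1 CPM, 21.4% in CA1 and 20.1% in CA3 lay above, and 33.4% and 34.0% below. The part of these markers and of Malat1 in the results was not tested.

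In subicular or cortical excitatory neurons, Fos had 13 and 11 UMIs in WT and 4 and 0 UMIs in KI (-3.09, adjusted p 0.402; pooled ratio of WT to KI 9.04, and 4.46 if KI replicate 2 is left out), Fosl2 had 8.70 and 12.9 CPM against 3.82 and 6.73 CPM (-0.99), and Junb had 14.2 and 22.4 CPM against 11.1 and 11.2 CPM (-0.67). Each of these 3 genes had both KI values under both WT values, as did 27.4% of all genes of at least 1 CPM. Without KI replicate 1, or with no low-count filter, Fos was called (adjusted p 0.0131 and 0.0109), and without KI replicate 2 Fosl2 was (0.0113). The class as a whole had 0 of 14801 genes called (0.0%), with 1589 at an unadjusted p under 0.05. Inhibitory neurons showed 25 and 17 UMIs of Fos in WT and 13 and 5 in KI (-1.35, adjusted p 0.257), and 5.92 and 7.44 CPM of Fosl2 against 2.77 and 3.18 CPM (-1.05, adjusted p 0.175). The Fos value ran from -2.35 to -0.69 over 14 alternatives, single libraries left out among them. Of all genes 0.252% were called in inhibitory neurons. The 6 OPC markers, all detected, summed to 185 to 193 CPM in WT mice and 217 to 451 CPM in KI mice within subicular or cortical neurons, and the 8 astrocyte markers to 164 to 183 CPM against 107 to 135 CPM within inhibitory neurons. Of the OPC markers 2 had both KI values above both WT values and 1 below, beside 17.5% and 27.4% of all genes. Of the astrocyte markers 0 lay above and 6 below, beside 17.9% and 35.3% of all genes. Malat1 in KI was 1.46 and 1.47 times its WT level in these classes. Their part in these results was not tested.

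DG granule neurons, which receive the main cortical input and had 9.63% of their genes called, had none of 5 tested factors called by edgeR, and 2 of these had an unadjusted p under 0.05, beside 28.1% of all genes. Fos had 17 and 25 UMIs in WT and 5 and 1 in KI (-1.93, SE 0.70, adjusted p 0.134), a pooled ratio of WT to KI of 4.20 (1.78 to 12.1) (12.5 if KI replicate 1 is left out, 2.54 if KI replicate 2 is). Fos in DG granule neurons was called without KI replicate 1 (adjusted p 0.0130), with classes from clusters (0.0221) and with doublets left out (0.0465), in a range of 0.0130 to 0.303. Fosl2 was 8.72 and 9.90 CPM in WT mice and 3.40 and 9.46 CPM in KI mice, so 1 KI library lay inside the WT range and KI replicate 1 far below it (-0.42, adjusted p 0.528). Leaving out KI replicate 1 turned this value to 0.12 (adjusted p 0.752). Leaving out KI replicate 2 gave -1.27, the only alternative in which it was called (adjusted p 0.000774). Jund was 27.4 and 24.8 CPM in WT mice and 33.7 and 30.8 CPM in KI mice (0.43, SE 0.15, adjusted p 0.113), and was called without KI replicate 2 (0.0015). Junb (13.4, 15.1, 14.4 and 11.7 CPM) and Jun (48.7, 43.0, 35.0 and 44.9 CPM) overlapped between genotypes. In this class the 6 OPC markers summed to 69.4 to 74.0 CPM in WT mice and 162 to 222 CPM in KI mice, and the 8 astrocyte markers to 881 to 918 CPM against 397 to 578 CPM, with no marker of either list at 0. Of the OPC markers 3 had both KI values above both WT values and 0 below. Of the astrocyte markers 0 lay above and 4 below. The 6 markers of the class itself went both ways, with 2 above and 3 below. Of all genes of at least 1 CPM, 20.6% lay above and 41.2% below. The 5 general markers of excitatory neurons summed to 1920 CPM in each WT mouse and 1281 and 1312 CPM in KI mice. The part of these markers in the values was not tested.

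**Figure D2:**
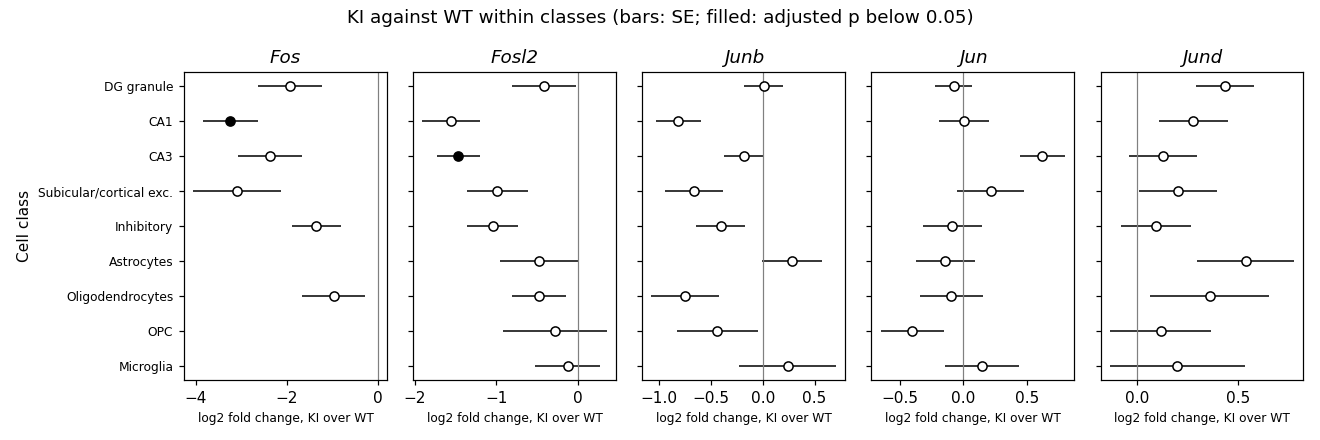
Log2 fold change (KI over WT, horizontal axes) of Fos, Fosl2, Junb, Jun and Jund in the cell classes where each was tested (vertical axis), with bars of 1 SE from edgeR and filled points for an adjusted p below 0.05. The filled points are Fos in CA1 pyramidal neurons (-3.24) and Fosl2 in CA3 pyramidal neurons (-1.47).

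The genotype effect in DG granule neurons was set against that of 3 other neuronal classes by an interaction of class and genotype, fitted with libraries as blocks. Fosl2 differed between DG and CA1 by 1.14 (SE 0.27, adjusted p 0.0306) and Junb by 0.82 (SE 0.21, adjusted p 0.0433), beside 6.52% of all genes called. The DG value of Fosl2 is the one that turned with KI replicate 1, and that of Junb was 0.01. Against CA3, Jun differed by -0.71 (SE 0.18, adjusted p 0.0147) beside 9.94% of all genes called, with the Jun levels in DG and CA3 given above. Fosl2 missed the threshold there (adjusted p 0.0563). Against inhibitory neurons, 0 of 5 factors were called, beside 5.82% of all genes. Calls were lost under several alternatives. With single libraries left out they were lost for Fosl2 without KI replicate 2 (adjusted p 0.179), WT replicate 1 (0.182) or WT replicate 2 (0.181), for Junb without KI replicate 1, WT replicate 1 or WT replicate 2 (0.133 to 0.338), and for Jun without KI replicate 1 (0.0851) or WT replicate 1 (0.311). They were also lost with the stricter gate for Fosl2 (0.0571), with the stricter gate and library totals for Junb (0.0728 and 0.0646), and with classes from clusters for Jun (0.254). Of 7 alternatives, 3 kept the Fosl2 call, 2 the Junb call and 4 the Jun call, and the adjusted p ranged from 0.00137 to 0.182 for Fosl2, 0.00389 to 0.338 for Junb and 9.27e-05 to 0.311 for Jun.

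In oligodendrocytes and microglia, both KI values of Maff were above both WT values, as were those of 19.3% and 14.5% of all genes of at least 1 CPM in these classes. Only in oligodendrocytes did Maff pass the count filter, and there through its KI counts alone. Its test and the calls in alternatives are therefore no independent support for a higher KI level. In oligodendrocytes 1 and 2 UMIs were counted in WT and 28 and 15 in KI, a pooled ratio of KI to WT of 11.2 (3.59 to 56.5). The log2 fold change was 3.43 (SE 0.70, adjusted p 0.170), in a class where 0.0416% of genes were called. Of 13 alternatives 4 called it, those without KI replicate 1 (0.00832), without KI replicate 2 (2.59e-05), with no low-count filter (3.72e-04) and with the replicate block (0.0169), and the adjusted p ranged up to 0.9995, without WT replicate 1. Microglia had 0 and 0 UMIs in WT and 12 and 3 in KI, at least 5.36-fold higher when WT is set to 3 counts over the group. KI replicate 1 decided this bound (11.1 CPM against 1.75 CPM in KI replicate 2), and without it the ratio to 3 counts was 1.75. The microglia of KI replicate 2 stood apart, with a median of 3737 UMIs per nucleus against 1763 to 2195.5 in the other libraries and 1789 CPM of the 8 microglial markers against 2570 to 3636 CPM. In microglia the 8 astrocyte markers, all detected, summed to 477 to 539 CPM in WT mice and 382 to 389 CPM in KI mice, and Malat1 in KI was 1.36 times its WT level. Of these 8 markers 4 had both KI values below both WT values and 0 above, beside 22.5% and 14.5% of all genes. OPC had 1 and 0 UMIs in WT and 9 and 1 in KI, a ratio of 7.27 (1.03 to 315), and its genotypes overlapped: without KI replicate 1 the ratio was 1.31. DG granule neurons had 5 and 3 UMIs in WT and 6 and 6 in KI (0.360, 0.263, 0.784 and 0.800 CPM). In oligodendrocytes the 8 microglial markers, detected in every library, summed to 266 to 268 CPM in WT mice and 351 to 386 CPM in KI mice, and the 6 OPC markers to 95.7 to 146 CPM against 229 to 253 CPM. There 5 microglial and 4 OPC markers had both KI values above both WT values, and 1 of each list below. Of all genes 19.3% lay above and 26.9% below. The oligodendrocytes of KI replicate 2 stood apart, with 6299 CPM of the 8 oligodendrocyte markers against 8777 to 8934 CPM in the other libraries. Their Syt1 level was 1698 CPM against 900 to 1091 CPM. The part of all these markers in the Maff counts was not tested.

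No factor was called between genotypes in astrocytes (0.0664% of all genes called), OPC (0.503%), or microglia (0.0%, 0 of 12164 genes, with 770 at an unadjusted p under 0.05). Astrocytes had 4.78 and 2.39 CPM of Fos in WT and 13.3 and 3.84 CPM in KI mice, from at most 11 UMIs, and the genotypes overlapped. Jund in astrocytes was 58.9 and 45.0 CPM in WT mice and 85.9 and 60.4 CPM in KI mice (0.54, adjusted p 0.389). In oligodendrocytes, where no factor was called either, the log2 fold change was -0.97 for Fos (adjusted p 0.587) and -0.48 for Fosl2. It was -0.75 for Junb (adjusted p 0.396), -0.09 for Jun and 0.36 for Jund. Over 14 alternatives the oligodendrocyte values ran from -1.12 to -0.42 for Junb and from -0.18 to 0.73 for Jund. In Cajal-Retzius cells (0.107% of genes called) and mural cells (0.217%), none of the 8 factors had counts enough to be tested.

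The share of nuclei with at least 1 UMI gave the same order for Fos. In CA1 pyramidal neurons it was 1.87% (exact Clopper-Pearson 95% interval 1.19 to 2.80) and 3.23% (2.34 to 4.34) in WT mice. In KI mice it was 0.569% (0.155 to 1.45) and 0.123% (0.00313 to 0.686) in KI. These intervals cover counting error only. When every nucleus was thinned to 1500 UMIs, the shares were 0.490% and 0.660% in WT and 0.142% and 0.0193% in KI, the last of these from 1 UMI before thinning. For Fosl2 in CA1 they were 6.60% and 10.1% against 2.28% and 4.57% before thinning, and 1.74% and 2.32% against 0.409% and 1.04% after it. In CA3, Fosl2 was in 1.61% and 1.43% of thinned WT nuclei and 0.443% and 0.644% of thinned KI nuclei. Over all nuclei, the thinned Fos share in KI was 0.381 of that in WT. The KI mean was 0.1735% (SD 0.121), with the lower KI library at 0.0877%, and the WT mean was 0.455% (SD 0.0398). The KI libraries were far apart, so the ratio depends on each of them.

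**Figure D3:**
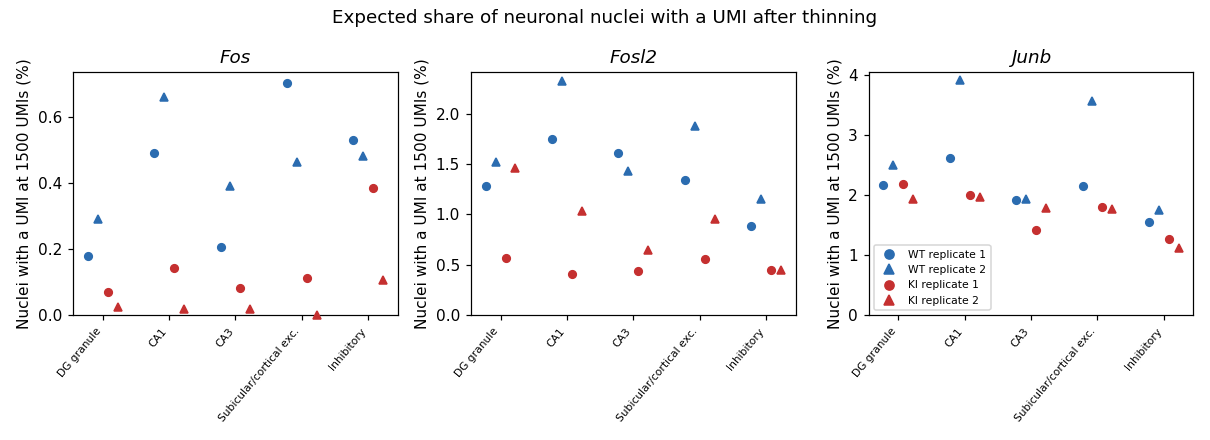
Expected share of nuclei (percent, vertical axis) with a UMI of Fos, Fosl2 and Junb after thinning to 1500 UMIs, in 5 neuronal classes, with 1 point per library, WT in blue and KI in red. In CA1 pyramidal neurons the WT libraries lie at 0.490% and 0.660% for Fos and the KI libraries at 0.142% and 0.0193%.

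Nuclei with several Fos UMIs were rare. The highest number in a nucleus was 3 and 4 in the WT libraries and 2 in each KI library, and 1 and 6 WT nuclei but 0 and 0 KI nuclei had at least 3. At least 3 UMIs of Junb were found in 16 and 37 WT nuclei and 10 and 6 KI nuclei. In CA1 and CA3 pyramidal neurons of WT mice, Junb, Fosl2 and Fosb were seen more often in nuclei with Fos than in the others. Among WT CA1 pyramidal neurons, Junb was detected in 34.8% and 47.6% of the 23 and 42 nuclei with Fos, and in 10.0% and 14.9% of the others. Fosl2 was in 13.0% and 33.3% of nuclei with Fos against 6.48% and 9.29%, and Fosb in 8.70% and 11.9% against 0.498% and 1.35%. Jun was in 8.70% and 9.52% of nuclei with Fos and in 10.8% and 10.9% of the others. Jund, the steadily made member, was also seen more often with Fos, in 30.4% and 21.4% against 12.0% and 12.9%. Nuclei with Fos were deeper, with medians of 6830 and 9365 UMIs against 6091.5 and 7235, and the shares are a description without a test. In WT CA3 pyramidal neurons, 12 and 19 nuclei had Fos, and Junb was in 41.7% and 52.6% of these against 8.89% and 9.67% of the others, while Jun was in 8.33% and 26.3% against 9.69% and 13.2% and Jund in 25.0% and 21.1% against 13.4% and 14.5%. In the 16 and 21 WT DG granule neurons with Fos, Junb was in 12.5% and 9.52% against 5.87% and 6.85%, Fosl2 in 6.25% and 23.8% against 3.71% and 4.49%, and Fosb in 6.25% and 0% against 0.338% and 0.400%. In the 11 and 11 subicular or cortical nuclei with Fos, Junb was in 9.09% and 18.2% against 8.40% and 11.2%, Fosl2 in 18.2% and 9.09% against 4.58% and 7.04%, and Fosb in none. In the 21 and 17 inhibitory neurons with Fos, Junb was in 14.3% and 23.5% against 5.72% and 6.98%, and Fosl2 in 14.3% and 11.8% against 3.45% and 4.70%.

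Related genes were read from 4 lists, chosen with earlier results of these data known. Of 18 other immediate early genes, such as Egr, Nr4a and Arc, 3 were lower over all nuclei and 0 higher, beside 0.771% of all genes called, and the median log2 fold change was -0.74 beside 0.01 for all genes. In CA1 pyramidal neurons 6 of 16 tested were lower and 0 higher, beside 1.97% of all genes called, with a median of -1.14 beside 0.00 for all genes. Nr4a3, an orphan nuclear receptor, fell from 45.9 and 40.8 CPM to 10.0 and 10.0 CPM (-2.03), and Arc, a regulator of AMPA receptor endocytosis, from 15.7 and 15.9 CPM to 1.98 and 2.78 CPM (-2.65). In CA3 5 of 15 were lower and 0 higher (median -1.01), beside 2.43% of all genes called, Nr4a2 by -1.48 and Nr4a3 by -1.01. In subicular or cortical and in inhibitory neurons 0 of 16 were called, at medians of -1.07 and -0.63. Glial classes had lower medians too, at -0.66 in oligodendrocytes, -0.50 in OPC, -0.34 in microglia and -0.23 in astrocytes, with 0 called. In oligodendrocytes 8 of 16 were lower and 1 higher at an unadjusted p under 0.05 in edgeR, beside 13.1% of all genes. DG granule neurons had a median of -0.10, with 3 of 16 lower (Arc -1.85, Nr4a3 -1.26, Homer1 -0.52) and Ier5 higher (1.30), beside 9.63% of all genes called.

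**Figure D4:**
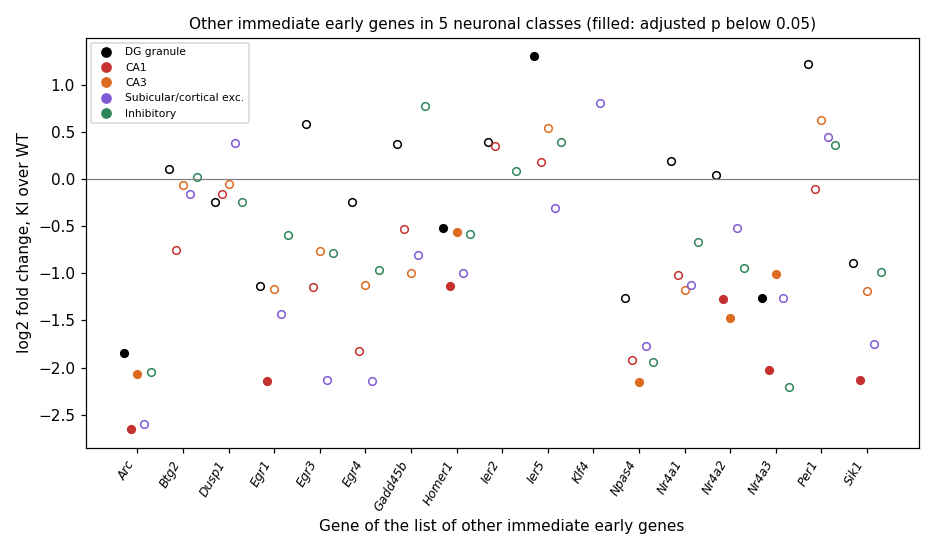
Log2 fold change (KI over WT, vertical axis) of each of the other immediate early genes (horizontal axis) in 5 neuronal classes (colours), with filled points for an adjusted p below 0.05. Medians are -1.14 in CA1, -1.01 in CA3 and -0.10 in DG granule neurons.

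Of 22 AP-1 partners and other leucine zipper factors, Batf3, a partner of Jun proteins, was the one called over all nuclei (2.25, from 1.01 and 0.876 CPM in WT mice to 4.70 and 3.97 CPM in KI mice). In DG granule neurons Batf3 was at 1.44 and 0.614 CPM in WT mice and rose to 20.5 and 12.3 CPM (4.07, SE 0.44, adjusted p 0.00446), and Bach1, a repressor that pairs with small Maf proteins, rose by 1.08, making 2 of 19 higher and 0 lower, close to the 9.63% of all genes called there. The other classes had 0 called. Of 17 kinases and factors upstream of AP-1, 1 was called in DG granule neurons, beside 9.63% of all genes: Camk4, a calcium-dependent kinase that phosphorylates CREB, fell from 61.8 and 63.2 CPM to 23.5 and 36.3 CPM (-0.94). In every other class tested 0 of this list were called.

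Of 15 genes linked to AP-1 as targets, 5 of 13 tested were higher and 1 lower in DG granule neurons, beside 9.63% of all genes called in either direction. Bdnf, a neurotrophin, had 58.5 and 56.5 CPM in WT mice and 156 and 166 CPM in KI mice (1.61), and the neuropeptide genes Penk (2.95), Npy (1.45) and Scg2 (1.17) rose, while Calb1, a calcium buffer of mature granule neurons, fell from 154 and 152 CPM to 33.7 and 56.8 CPM (-1.64). Bdnf was among the genes the study discussed from these libraries, so its place in the list is not independent of them. In CA1 pyramidal neurons, where 1.97% of all genes were called, Npy was higher (1.25) and Pcsk1 (-1.56) and Gap43 (-0.87) were lower. In CA3, with 2.43% of all genes called, Npy (1.48) and Penk (2.10) were higher and Pcsk1 (-1.31), a prohormone convertase, was lower. Penk was also called higher in inhibitory neurons and in OPC, beside 0.252% and 0.503% of all genes called. Over all nuclei, with 0.771% of all genes called, 2 were higher (Penk 1.86, Npy 1.03) and 2 lower (Calb1 -0.83, Pcsk1 -1.20). The list thus held genes called in both directions, in classes where Fos or Fosl2 had lower KI values.

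Genes with a pattern most like that of Jun, Junb and Jund were sought over 44 class-by-library values of log2(CPM + 1), among 10327 genes of at least 10 CPM. For Jun they were Rnf7 (Pearson r 0.80), Tmem80 (0.79) and Jtb (0.78), for Junb Rpl12 (0.85), Stub1 (0.84) and Dph5 (0.83), and for Jund Serinc1 (0.94), Rps7 (0.90) and Rps14 (0.89). These are descriptions, since the 11 classes of a library share the mouse and its preparation and classes differ in depth.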

How the data were processed

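Hippocampal nuclei of 2 WT and 2 KI mice were profiled with a droplet method that counts UMIs, 1 library per mouse. The authors' deposited count matrices came from Cell Ranger 7.0.1 per the file headers, and the submitters' processing notes name mm10. The deposited values are raw UMI counts per gene and nucleus barcode. Whether intronic reads were counted is not given in the sources used here. Groups came from the labels, which place each library with its own mouse.

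Of 55640 barcodes, the 55367 with at least 500 genes were kept. Each nucleus was assigned to a class when at least 3 of its markers were detected, with a mean marker z-score of at least 0.5 and a margin of at least 0.3 over the next class. These limits were set after class sizes and agreement with Leiden clusters had been seen, without regard to the factors' values. Doublets were kept, and nuclei with a Scrublet score above 0.25 (3296) were left out in an alternative. Clusters were used in an alternative too.

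Library sums of UMIs, for all nuclei together and for each class holding 20 or more nuclei in each library, were tested with edgeR 4.0.16 in R 4.3.3 (low-count filter, TMM factors, quasi-likelihood test, Benjamini-Hochberg adjustment over all genes of a fit, threshold 0.05). The study tested single nuclei; here the mouse was the replicate. An SE is the absolute log2 fold change divided by the square root of F. CPM are UMIs per 1000000 of the class and library. Shares were given as counted and after thinning. The scripts were tested on simulated data. Replicate pairs differed by more than sampling noise (chi-square per degree of freedom 17.7 in WT, 50.5 in KI). Python 3.11.15, scanpy 1.11.5, scipy 1.17.1, limma 3.58.1 and DESeq2 1.42.0 were also used.

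The factors and gene lists were chosen with earlier results of these data known. All 8 factors were counted in every class, and not every value is printed here. From each list, up to 4 called genes per direction were named in DG granule neurons and up to 2 in other classes, by lowest p, and for factors of at least 10 CPM the 3 genes with the most similar pattern. Alternatives were DESeq2, library totals, no low-count filter, other limits on nuclei and classes, other thinning, a replicate block and leaving out each library.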

Additional observations from a re-analysis of the deposited data

Results flagged for a closer look

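For 3 results the genotype effect differed between neuronal classes by the class-by-genotype term of edgeR. The log2 fold change (KI over WT) of Fosl2 in DG granule neurons exceeded that in CA1 pyramidal neurons by 1.14 (SE 0.27, adjusted p 0.0306). That of Junb exceeded it by 0.82 (SE 0.21, adjusted p 0.0433). That of Jun in DG granule neurons was below that in CA3 pyramidal neurons by a difference of -0.71 (SE 0.18, adjusted p 0.0147). Summed OPC markers in KI were 2.68 times their WT level in DG granule neurons, 1.56 times in CA1 and 1.60 times in CA3, and Malat1 1.84, 1.49 and 1.40 times; their part in the differences was not tested. No group here has 4 or more libraries, so single libraries were not screened as outliers.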

How the results depend on the processing

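Over all nuclei, 0 factors were called, against 2 with DESeq2 and 2 with the replicate block, and 0 to 4 when single libraries were left out. Within classes, 2 results were called, against 4 with classes from clusters, 1 with library totals in place of TMM, 8 without the low-count filter, 6 with the replicate block, 1 with the stricter gate and 1 to 11 when single libraries were left out (11 without KI replicate 2, 8 without KI replicate 1, 2 without WT replicate 1 and 1 without WT replicate 2). Differences between classes gave 21 calls, and 15 to 21 under every alternative run. For the genotype effect in DG granule neurons against other neurons, 3 were called, against 1 with the stricter gate and 0 to 2 when single libraries were left out (0 without WT replicate 1). Fosl2 in subicular or cortical neurons changed sign against the other classes, from 0.11 to -0.88 (adjusted p 0.0141) with classes from clusters; the cause was not tested. Leaving out a library leaves 1 in its group, which is assumed to vary like the others. The share of all genes called in each alternative is not given here. A changed number of called factors is therefore not read as a result about the factors. Replicate numbers mark no shared litter or day in the labels, and deviations of WT and KI replicate 1 from their group means had a correlation of 0.0881 over 9757 genes, so the block is an alternative only; with it, Fos (-1.84, adjusted p 0.0266) and Fosl2 (-0.99, adjusted p 0.0131) were called over all nuclei. The KI to WT ratio of the thinned Fos share was 0.381, and 0.412 and 0.312 at 1000 and 2500 UMIs. The KI libraries spread widely at 1500 UMIs (mean 0.1735%, SD 0.121), so the ratio depends on each of them more than these depths show. Signs differed from those reported in 30 of 590 within-class results and 46 of 506 class differences that passed no threshold in either fit. Counts of 1 to 5 UMIs per library limit Fos, Fosb, Maff and Atf3 in most classes.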

Other observations

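Small classes that entered no test gave the following counts. In 132 nuclei like endothelial cells, pooled over the libraries, 45 UMIs of Jun (90.0 CPM), 50 of Jund and 20 of Junb (40.0 CPM) were counted. In 116 nuclei like fibroblasts there were 43 UMIs of Jun (98.2 CPM), 48 of Jund (110 CPM) and 18 of Junb (41.1 CPM). In 39 nuclei like ependymal cells, 5 UMIs of Fos were counted, all in the 7 nuclei of KI replicate 1. Unassigned nuclei, 20557 in all, held 84 and 94 UMIs of Fos in 5304 and 4362 WT nuclei and 35 and 14 UMIs in 4697 and 6194 KI nuclei. Maff in the same nuclei gave 13 and 9 UMIs in WT and 38 and 17 in KI. These values carry no test.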
